A study of Mus musculus with 6 samples.

Results

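Chondrogenic Sox transcription factors and cartilage matrix genes were examined in mouse osteoblast cultures given verapamil, a drug that blocks L-type calcium channels. The set comprised 8 genes, taken by symbol from the 17491 genes of the count table: the transcription factor genes Sox5, Sox6 and Sox9, and the matrix genes Acan, Hapln1, Comp, Matn2 and Chad. The 6 RNA-seq libraries came from wild-type bone marrow mesenchymal stem cells of mouse tibia and femur, cultured to day 7 of osteogenic differentiation with ascorbic acid, dexamethasone and β-glycerophosphate. There were 3 libraries of verapamil-treated cultures and 3 of control cultures. Neither the dose nor the duration of verapamil is given in the labels, nor is the age or strain of the mice, nor what the control cultures received. Whether the replicates were separate animals or cultures is not stated, so p-values measure the spread between these libraries, which may be technical.

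SOX9 is an HMG-box transcription factor that cells need to enter the cartilage lineage. SOX5 and SOX6, a closely related pair, bind DNA beside SOX9 and strengthen its action on cartilage genes. Among those genes are Acan, encoding the large proteoglycan aggrecan, and Hapln1, encoding the link protein that fastens aggrecan to hyaluronan. Comp encodes cartilage oligomeric matrix protein, a thrombospondin of cartilage, tendon and ligament. Matn2 encodes matrilin-2, an adaptor protein of many connective tissues, and Chad encodes chondroadherin, a leucine-rich repeat protein that binds collagen and integrins. Osteoblasts and chondrocytes share an osteochondroprogenitor, in which Sox9 is expressed beside Runx2, the regulator of the bone lineage.

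Sox9, Hapln1 and Comp were lower in verapamil than in control cultures, Sox5, Sox6 and Matn2 did not pass the test, and Acan and Chad had too few reads to be tested. Among the 6 tested genes Hapln1 fell most, with a level about 8.51 times higher in control cultures, against 1.81 times for Comp and 1.72 times for Sox9. Differences were tested with edgeR's quasi-likelihood test across 13366 genes and called at a Benjamini-Hochberg adjusted p under 0.05. Of all genes tested, 31.7% were called, 16.3% lower and 15.4% higher with verapamil. Of the 8 genes of the set, 3 were called lower, 0 were called higher, 3 were tested without passing, and 2 were not tested. At an unadjusted p under 0.05, 0 members were higher by that test, and DESeq2 called 0 higher. Hapln1 passed the filter on low counts through its control libraries alone, so it could be tested only because it was higher there.

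Library totals ran from 18.2 to 21.7 M estimated reads, so that 1 read was worth 0.0449 to 0.0534 CPM after TMM scaling. Control libraries differed more among themselves than verapamil libraries did. The chi-square per degree of freedom between replicates was 3.57 to 6.21 for verapamil pairs and 12.6 to 50.0 for control pairs, with control replicate 2 in both of the widest pairs. In place of 4235 genes, 2671 were called without control replicate 1, 4833 without control replicate 2 and 5042 without control replicate 3. Without any 1 of the verapamil replicates 2236 to 2625 were called. Sox9, Hapln1 and Comp were called in each of these fits.

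Levels were set side by side per kilobase of the longest annotated coding transcript. On this scale Matn2 and Comp led the set in verapamil cultures, at 15.8 ± 1.38 and 14.2 ± 0.217 CPM per kilobase, and Comp and Matn2 led it in control cultures, at 25.7 ± 3.64 and 17.9 ± 4.08 (SD, n = 3 each, as for all such values). The libraries of these neighbours overlapped in both groups. Sox9 followed at 1.47 ± 0.155 CPM per kilobase in verapamil and 2.53 ± 0.560 in control cultures, apart from its neighbours on both sides. Sox5 came next in verapamil cultures, at 0.418 ± 0.0188 CPM per kilobase, whereas in control cultures Hapln1, at 0.642 ± 0.0496, stood above Sox5, at 0.449 ± 0.0218. In verapamil cultures Hapln1 stood below Sox6, at 0.0732 ± 0.0455 against 0.117 ± 0.0586 CPM per kilobase for Sox6, with overlapping libraries. Sox6 in control cultures stood at 0.177 ± 0.0335 CPM per kilobase. Chad and Acan were last in both groups, and their libraries overlapped. Ranked per kilobase among 16509 genes with a known transcript length, Comp was at place 4485 in verapamil and 2669 in control cultures, and Sox9 at 10655 and 9779.

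**Figure D1:**
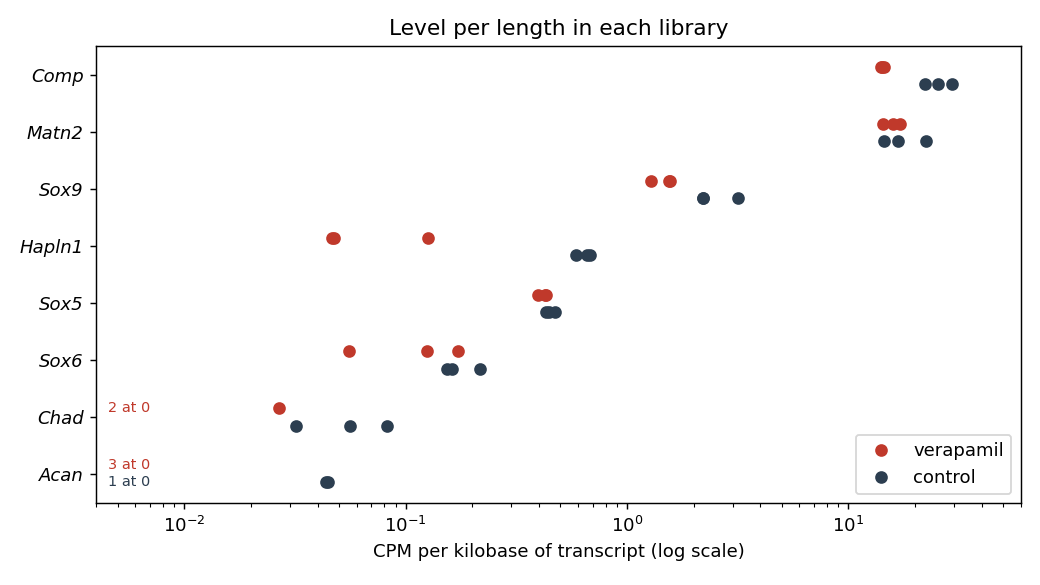
Level of each gene in each library, in CPM per kilobase of transcript on a log axis, with verapamil libraries in red above control libraries in dark blue and libraries at 0 written as counts. Comp and Matn2 lie above 14.0 CPM per kilobase in every library, and Acan is at 0 in all 3 verapamil libraries and in 1 control library.

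The cartilage programme that the set stands for was present only in part. Besides aggrecan and chondroadherin, several other genes typical of chondrocytes were close to 0: Snorc had at most 1 read in any library, Matn1 at most 2, and Cnmd, encoding chondromodulin, 1, 0 and 0 reads in verapamil and 2, 0 and 4 in control libraries. Col9a1, a chain of cartilage collagen IX, had 3, 2 and 2 reads in verapamil and 9, 4 and 11 in control libraries. Low but detected were Col9a2, with 8 to 22 reads in a library, Col9a3, with 3.25 to 18, and Col11a2, with 19 to 45, and Col10a1 had 93 to 352 reads. Col2a1, the main collagen of cartilage, was abundant in every library, with 63.6, 57.2 and 96.5 CPM in verapamil replicates 1, 2 and 3 and 256, 573 and 186 CPM in control replicates 1, 2 and 3. The groups of Col2a1 did not overlap, and control replicate 2 stood far above the other libraries. Per kilobase, Col2a1 had 14.2 ± 4.14 CPM in verapamil and 66.3 ± 40.5 CPM in control cultures, while Col1a1, the main chain of bone collagen, had 908 ± 91 CPM in verapamil and 2878 ± 749 CPM in control cultures.

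**Figure D2:**
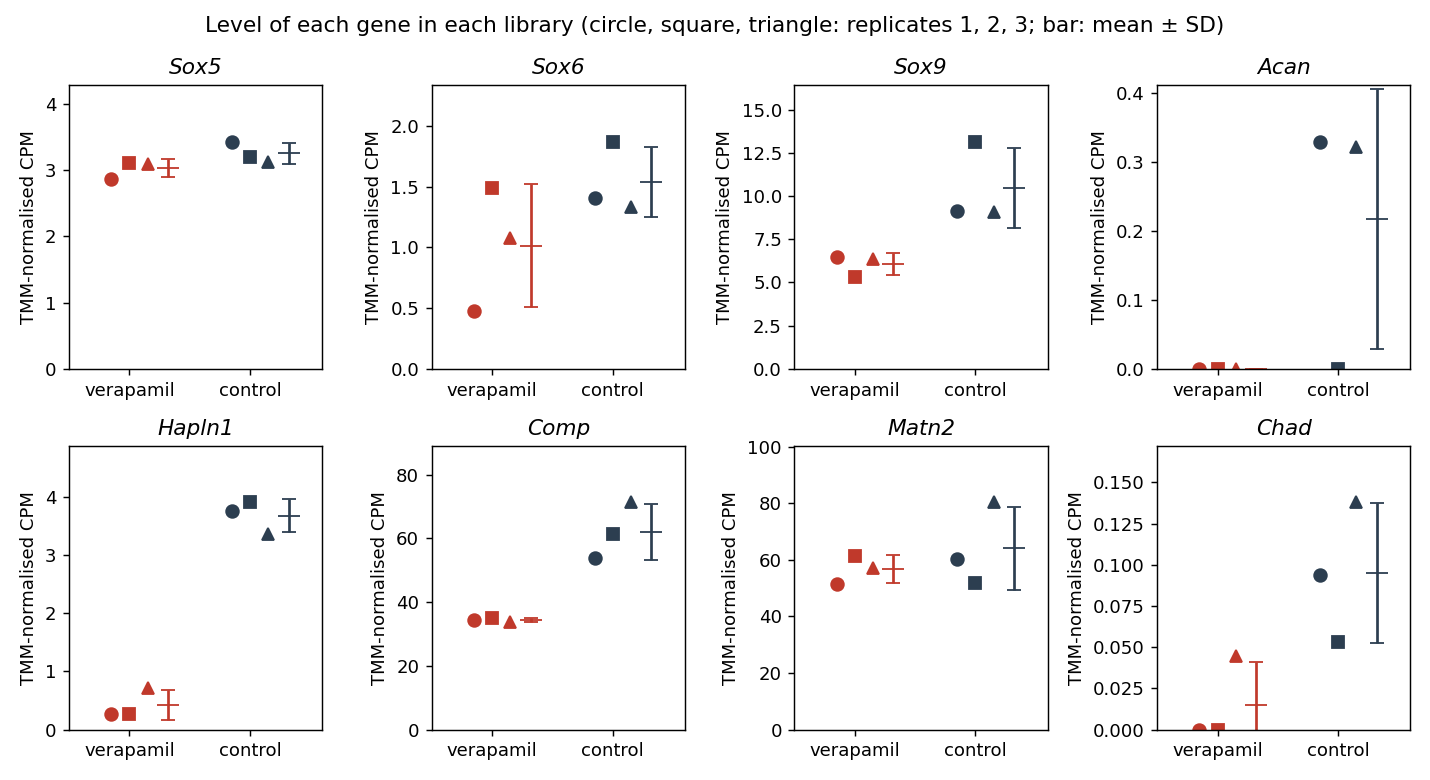
TMM-normalised CPM of each gene in verapamil libraries (red, left) and control libraries (dark blue, right), with replicates 1, 2 and 3 as circle, square and triangle and the mean ± SD beside them. Each panel has its own axis from 0; Sox9, Hapln1 and Comp show verapamil libraries well below control libraries, while Sox6 and Matn2 overlap.

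Sox9 (Entrez 20682, chromosome 11, 112782210 to 112787757 in GRCm38) had 6.49, 5.32 and 6.38 CPM in verapamil replicates 1, 2 and 3, against 9.16, 13.1 and 9.09 CPM in control replicates 1, 2 and 3. All verapamil libraries lay below all control libraries, and control replicate 2 was the highest of the 6. Its log2 fold change of verapamil over control was -0.78 ± 0.17 SE, with an adjusted p of 0.00954 in edgeR's quasi-likelihood test. These values rested on 382 reads in verapamil and 639 in control libraries. Without control replicate 2 the log2 fold change was -0.60 (edgeR adjusted p = 0.00387), and the highest adjusted p with 1 library left out was 0.0464, without verapamil replicate 2. In bulk RNA, fewer cells that express Sox9 and less Sox9 RNA per cell cannot be told apart.

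Set against Runx2 in the same library, Sox9 showed 8.83, 7.35 and 8.37 reads per 100 reads of Runx2 in verapamil replicates 1, 2 and 3, and 8.51, 13.4 and 8.36 in control replicates 1, 2 and 3. The groups overlapped in this ratio, with control replicate 2 standing alone at the top. Runx2 itself fell to 74.0 ± 1.96 CPM in verapamil cultures, against 105 ± 5.88 CPM in control cultures (log2 fold change -0.50 ± 0.06 SE, edgeR adjusted p = 7.98e-04). Relative to Col1a1 the order turned, with 0.127, 0.106 and 0.106 Sox9 reads per 100 Col1a1 reads in verapamil libraries and 0.0617, 0.0593 and 0.0642 in control libraries. On this measure every verapamil library lay above every control library, and Col1a1 itself fell (log2 fold change -1.66 ± 0.19 SE).

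Sox5 (Entrez 20678, chromosome 6, 143828425 to 144782287) changed least among the tested genes. It had 2.87, 3.11 and 3.10 CPM in verapamil replicates 1, 2 and 3 and 3.43, 3.21 and 3.12 CPM in control replicates 1, 2 and 3. The groups just failed to overlap, with 3.11 CPM as the highest verapamil and 3.12 CPM as the lowest control value. The log2 fold change was -0.10, with a 95% interval from -0.42 to 0.22 (edgeR adjusted p = 0.623). A change as large as that of Sox9 lay outside the interval, and changes within it were not resolved. Per 100 reads of Runx2, Sox5 had 3.91, 4.30 and 4.07 reads in verapamil and 3.19, 3.27 and 2.87 in control libraries, so this ratio was higher in every treated library. An antisense gene, Sox5os1, shares exon sequence with Sox5 on the opposite strand, and whether the counting used strand is not given in the sources used here.

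Sox6 (Entrez 20679, chromosome 7, 115470872 to 116040776) had 0.478, 1.49 and 1.08 CPM in verapamil replicates 1, 2 and 3 and 1.41, 1.87 and 1.33 CPM in control replicates 1, 2 and 3. Verapamil replicate 1, with 9.04 estimated reads, was the lowest, and verapamil replicate 2 lay within the control range. The log2 fold change was -0.56, with a 95% interval from -1.38 to 0.26 (edgeR adjusted p = 0.267). Without verapamil replicate 1 it was -0.26, and without verapamil replicate 2 it was -0.94, neither past the test (edgeR adjusted p = 0.562 and 0.131). At 66.1 reads in verapamil and 93.6 in control libraries, a change the size of that of Sox9 could not be told from none.

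Hapln1 (Entrez 12950, chromosome 13, 89540529 to 89611832) had 0.266, 0.271 and 0.719 CPM in verapamil replicates 1, 2 and 3, against 3.76, 3.90 and 3.35 CPM in control replicates 1, 2 and 3. These were 5, 6 and 16 reads in verapamil and 80.0, 72.97 and 72.93 estimated reads in control libraries. The control libraries lay close together, and verapamil replicate 3 was the highest of the treated ones, still far below every control. The log2 fold change was -3.09 ± 0.32 SE (edgeR adjusted p = 5.15e-04), and its 95% interval ran from -3.81 to -2.37. It was place 20 among the 13366 genes ordered from the deepest fall. Having passed the filter through its control libraries alone, it entered this order only because it was higher there. The place therefore adds no support. Without verapamil replicate 3 the log2 fold change was -3.74 (edgeR adjusted p = 0.00141). Per 100 reads of Runx2, Hapln1 had 0.362, 0.374 and 0.943 reads in verapamil and 3.49, 3.98 and 3.08 in control libraries, so it was also lower relative to Runx2 in every treated library. Relative to Col1a1 it was lower too, at 0.00519, 0.00538 and 0.0120 reads per 100 in verapamil and 0.0253, 0.0176 and 0.0237 in control libraries.

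Promoter windows from RefSeq, GRCm38.p6, ran from 250 bases before to 50 after a listed start. They were available for Sox5, Sox6, Acan, Hapln1 and Chad, and not for Sox9, Comp and Matn2. The Sox5 window and all Sox6 windows lay inside these minus-strand genes, whose outer ends are at 144782287 and 116040776. For both genes they therefore describe inner starts. All windows were searched on both strands for AACAAT and ACAAAG, letters of the core that HMG-box SOX proteins bind. Being different words of the same length, they cannot match at the same position of a strand. The windows of Sox5, Acan, Hapln1 and Chad held neither, and 5 of the 6 windows of Sox6, which has 6 starts in the table, held at least 1. Of 32851 windows of this length genome-wide, 27% held at least 1 of the motifs, 10.7% AACAAT and 18.7% ACAAAG, and 2.4% held both. A match is a description of the letters and not a binding site. Hapln1 is shown because it fell most among the 6 tested genes, Sox5 because it changed least among them, and the Sox6 start because it alone in the set held both motifs; capitals mark the motifs, on either strand.
Hapln1, chr13:89540386-89540685, plus strand: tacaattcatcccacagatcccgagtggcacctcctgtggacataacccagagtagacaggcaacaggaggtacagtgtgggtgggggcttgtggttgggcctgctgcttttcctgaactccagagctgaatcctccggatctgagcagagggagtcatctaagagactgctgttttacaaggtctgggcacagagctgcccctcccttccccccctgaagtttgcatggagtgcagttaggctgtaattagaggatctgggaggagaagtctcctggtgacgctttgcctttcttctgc
Sox5, chr6:143947057-143947356, minus strand: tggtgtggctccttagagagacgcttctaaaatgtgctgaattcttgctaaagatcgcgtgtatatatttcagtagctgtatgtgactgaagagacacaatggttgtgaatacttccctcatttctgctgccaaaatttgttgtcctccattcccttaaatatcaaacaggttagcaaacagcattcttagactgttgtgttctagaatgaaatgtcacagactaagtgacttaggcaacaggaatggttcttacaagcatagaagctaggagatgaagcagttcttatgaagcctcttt
Sox6, chr7:115824661-115824960, minus strand: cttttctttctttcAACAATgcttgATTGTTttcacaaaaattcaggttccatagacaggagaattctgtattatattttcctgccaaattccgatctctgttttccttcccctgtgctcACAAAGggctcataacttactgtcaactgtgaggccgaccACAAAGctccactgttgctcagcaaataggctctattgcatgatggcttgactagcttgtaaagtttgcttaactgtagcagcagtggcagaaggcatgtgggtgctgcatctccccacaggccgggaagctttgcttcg
The Sox6 window held AACAAT once on each strand and ACAAAG at 2 places. G and C made up 54.3% of the Hapln1 window, 39.7% of the Sox5 window and 45% of the Sox6 window, against 74% in that of Acan and 61% in that of Chad.

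Comp (Entrez 12845, chromosome 8, 70373548 to 70382066) had 34.3, 34.9 and 33.9 CPM in verapamil replicates 1, 2 and 3, against 53.8, 61.3 and 71.3 CPM in control replicates 1, 2 and 3. The treated libraries were nearly alike, with a coefficient of variation of 1.52%, and the control libraries spread over 14.1% and stayed above all treated ones. The log2 fold change was -0.85 ± 0.10 SE (edgeR adjusted p = 7.41e-04). Beside 100 reads of Runx2 there were 46.8, 48.2 and 44.5 reads of Comp in verapamil and 49.96, 62.5 and 65.5 in control libraries. This ratio too was lower in every treated library, although control replicate 1 came close to verapamil replicate 2. Per 100 reads of Col1a1 the order turned for Comp as well, with 0.670, 0.694 and 0.564 reads in verapamil and 0.362, 0.277 and 0.503 in control libraries. With 2174 reads in verapamil and 3845 in control libraries, Comp was measured more precisely than Sox9 or Hapln1.

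Matn2 (Entrez 17181, chromosome 15, 34306681 to 34436242) was the second matrix gene at a high level, and it did not pass the test. It had 51.4, 61.3 and 57.2 CPM in verapamil replicates 1, 2 and 3 and 60.3, 51.8 and 80.2 CPM in control replicates 1, 2 and 3. The groups overlapped, and control replicate 3 stood above the rest. The log2 fold change was -0.18, with a 95% interval from -0.55 to 0.19 (edgeR adjusted p = 0.423), and without control replicate 3 it was 0.012. Control replicate 3 was also the highest library for Comp. Exons of Matn2 overlap those of the protein-coding gene 9430069I07Rik on the opposite strand.

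Acan (Entrez 11595, chromosome 7, 79053226 to 79115099) had 0 reads in each of the 3 verapamil libraries, against 7, 0 and 7 reads in control replicates 1, 2 and 3. Control replicate 2, the library with the most Col2a1 and Sox9, therefore had none. A count of 0 was taken to allow at most 3 reads over the verapamil group. With the 14 control reads taken as exact, that put Acan at least 4.53-fold lower in verapamil cultures. The bound covers the counting error of the verapamil group only, not that of the control reads or the spread between libraries. Chad (Entrez 12643, chromosome 11, 94565047 to 94569127) had 0, 0 and 1 reads in verapamil and 2, 1 and 3 reads in control libraries. The ratio of verapamil to control was 0.172, with an exact 95% interval of the counts from 0.00374 to 1.42, which covers counting error only. Fitted without the filter on low counts, neither passed (edgeR adjusted p = 0.0679 for Acan and 0.223 for Chad).

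**Figure D3:**
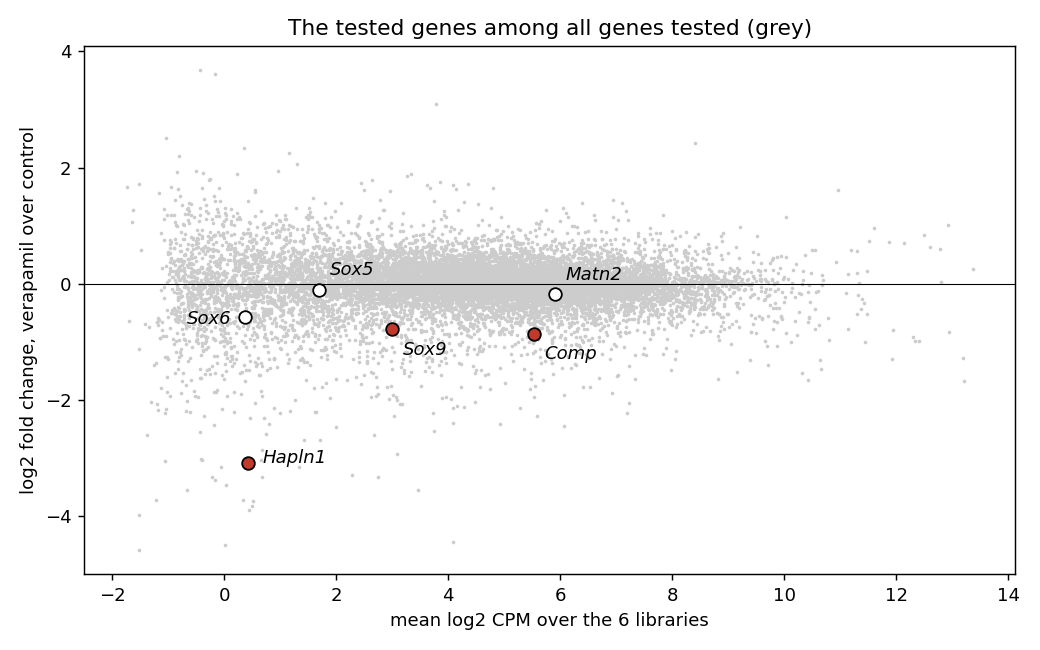
Log2 fold change of verapamil over control against the mean log2 CPM of the 6 libraries for all 13366 genes tested (grey), with the 6 tested genes of the set marked and filled where called. Hapln1 lies at the lower edge of the cloud at a low level, Comp and Sox9 lie below 0, and Sox5 and Matn2 lie near 0.

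The direction of the called genes held in every alternative run. Across 16 alternatives of scaling, filter, test, threshold, pairing and left-out libraries, the log2 fold change ran from -3.74 to -2.84 for Hapln1, from -0.95 to -0.75 for Comp and from -0.88 to -0.60 for Sox9, and all 3 were called in each. Among the 6 tested genes, the groups did not overlap for Sox5, Sox9, Hapln1 and Comp, all lower with verapamil. Of all 13366 genes, the groups did not overlap in 49.6%, with verapamil libraries wholly below control libraries in 24.4% and wholly above in 25.2%.

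**Figure D4:**
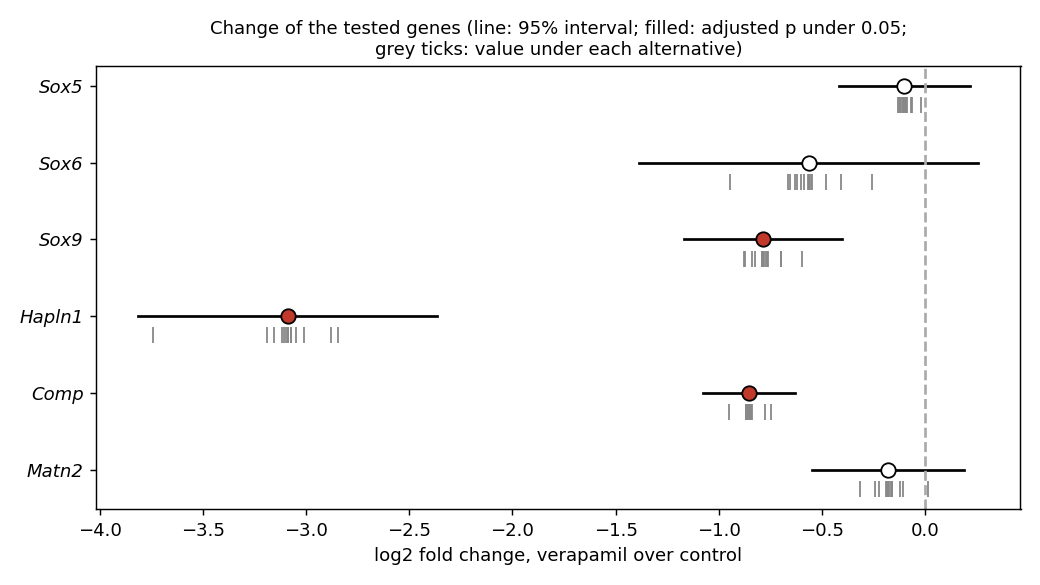
Log2 fold change of verapamil over control for the 6 tested genes, with 95% intervals as lines, circles filled at an adjusted p under 0.05, and the values under the 16 alternatives as grey ticks. The intervals of Hapln1, Comp and Sox9 lie below 0, and those of Sox5, Sox6 and Matn2 include 0.

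The genes whose levels followed the same course over the 6 libraries were sought among 12642 genes of at least 1 CPM, by the root mean square distance of log2 CPM after centring. Closest to Sox9 were Mettl24, Aebp1 and B3gnt9, at distances of 0.0627, 0.0673 and 0.0745 log2 units. Aebp1, encoding a collagen-binding secreted protein, had 1264, 1149 and 1308 CPM in verapamil and 1889, 2485 and 1717 CPM in control replicates 1, 2 and 3. Genes found this way follow the member by choice. Their falls, and the lead of control replicate 2 in Aebp1, are therefore no separate result. The call of Mettl24 (log2 fold change -0.92) was lost without verapamil replicate 2 or 3 (edgeR adjusted p = 0.0735 and 0.0522). Comp was closest to P2rx2, Clec11a and Tmem170, at 0.0873, 0.0900 and 0.0925. Clec11a, encoding a secreted growth factor of bone-forming cells, had 68.8 ± 2.42 CPM in verapamil and 132 ± 9.98 CPM in control cultures. For Hapln1 the closest were Ngef, Megf10 and BB287469, at larger distances of 0.322, 0.397 and 0.415. Ngef and BB287469, like Hapln1, lay below 1 CPM in every verapamil library, so they met the mean of 1 CPM through their control libraries.

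Relatives of the matrix genes were lower or did not pass. Of 9 tested paralogues of Acan, Hapln1, Comp, Matn2 and Chad, 4 fell, 0 rose and 5 did not pass, with a median log2 fold change of -0.60, against 0.0077 over all genes tested. Those that fell were the thrombospondins Thbs1 (-0.99) and Thbs3 (-0.61), and the aggrecan relatives Bcan (-1.28) and Vcan (-0.45). Vcan, encoding versican, the large proteoglycan of loose connective tissue, had 218 ± 17.7 CPM in verapamil and 297 ± 7.12 CPM in control cultures. Thbs2 (-0.17), Hapln3 (-0.60), Hapln4 (-0.83), Matn4 (-0.20) and Chadl (-0.29) were the others. Over all genes tested 16.3% fell and 15.4% rose, and no test set the lists against these shares. The lists here and below were chosen with earlier results of these data known, so these shares are no independent comparison. Among 8 other tested Sox family genes, 2 fell, 0 rose and 6 did not pass, with a median of -0.40. They were Sox10 (-0.91 ± 0.19 SE, edgeR adjusted p = 0.00930), a relative of Sox9 in the same subgroup, and Sox13 (-0.67 ± 0.17 SE, edgeR adjusted p = 0.0200), the third relative of Sox5 and Sox6. The call of Sox13 was lost without verapamil replicate 2 or 3 (edgeR adjusted p = 0.0819 and 0.0703). Sox8, the remaining relative of Sox9, was not tested, and it had at most 0.0532 CPM in verapamil and 0.329, 0 and 0.367 CPM in control replicates 1, 2 and 3.

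Cartilage collagens and further chondrocyte genes showed a mixture of falls and genes that did not pass. The shares over all genes tested were 16.3% lower and 15.4% higher. Of 10 tested collagen genes, 6 fell, 0 rose and 4 did not pass, with a median log2 fold change of -0.92. Col2a1 fell (-2.22 ± 0.45 SE, edgeR adjusted p = 0.0130), though without verapamil replicate 2 its adjusted p was 0.0506. Col10a1, the collagen of hypertrophic cartilage, fell to 5.59 ± 0.787 CPM in verapamil cultures, against 14.4 ± 1.96 CPM in control cultures (-1.36 ± 0.14 SE). Col6a3 (-1.65) and Col6a2 (-1.003), chains of the collagen that surrounds chondrocytes and many other cells, fell too. Of 13 tested further chondrocyte genes, 7 fell, 1 rose and 5 did not pass, with a median of -0.59. Susd5 fell to 0.337 ± 0.102 CPM in verapamil cultures, against 4.80 ± 1.498 CPM in control cultures (-3.82 ± 0.35 SE). With 8, 8 and 5 reads in verapamil libraries, Susd5 passed the filter on low counts through its control libraries alone, as Hapln1 did. Fmod, encoding the collagen-binding proteoglycan fibromodulin (-1.49), Itga10, encoding a collagen-binding integrin subunit of chondrocytes (-1.26), and Pth1r, encoding the receptor of parathyroid hormone (-0.76), fell as well. The gene that rose, Trpv4 (0.48), encodes a cation channel, and it was named after its value was seen.

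Signals and regulators of chondrogenesis included Bmp2, a morphogen that starts cartilage and bone formation. Bmp2 had 6.43, 5.37 and 6.78 CPM in verapamil replicates 1, 2 and 3, against 33.1, 32.3 and 20.9 CPM in control replicates 1, 2 and 3, a log2 fold change of -2.22 ± 0.20 SE (edgeR adjusted p = 4.40e-04). Of 26 tested genes, 16 fell, 1 rose and 9 did not pass, with a median of -0.31, beside 16.3% lower and 15.4% higher over all genes. With verapamil replicate 1, 2 or 3 left out, 9, 9 and 10 genes of the list fell. The count lower over all genes dropped too, to 1222, 1226 and 1393, against 2180 with all libraries. Gdf10 (-1.17), a bone morphogenetic protein relative, and Grem1 (-1.06), an antagonist of these proteins, fell, and Bmp6 (1.18) rose. The call of Grem1 was lost when control replicate 1 or 2 or a single verapamil library was left out (edgeR adjusted p = 0.0613 to 0.0990), nor without the filter on low counts (0.0753). Bmp6 lost its call when control replicate 1 or 2 or verapamil replicate 2 was left out (edgeR adjusted p = 0.0502 to 0.0842).

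Enzymes that act on aggrecan and its sugar chains were lower in several cases, while 16.3% of all genes tested fell and 15.4% rose. Of 12 tested proteases and inhibitors of cartilage matrix, 7 fell, 1 rose and 4 did not pass, with a median log2 fold change of -0.35. Without verapamil replicate 2, 4 of the list fell, and the count lower over all genes was 1226, against 2180 with all libraries. Adamts4, an aggrecanase, had 31.3, 33.3 and 32.8 CPM in verapamil and 60.3, 58.0 and 60.4 CPM in control libraries (-0.87 ± 0.06 SE). Adamts12 (-0.91), which cleaves COMP, and Adamts1 (-0.65) fell too, as did the inhibitor Timp3 (-1.54), whose adjusted p was 0.0533 without verapamil replicate 2. The other main aggrecanase, Adamts5, was the gene that rose (0.30), and it was named after its value was seen. Among 24 tested genes for hyaluronan and chondroitin sulphate synthesis, 12 fell, 2 rose and 10 did not pass, with a median of -0.19. Has2, a synthase of the hyaluronan that link protein binds, fell to 29.5 ± 1.97 CPM in verapamil cultures, against 92.3 ± 19.6 CPM in control cultures (-1.65 ± 0.16 SE). Chsy3 (-0.78), Chst15 (-0.78) and Chst3 (-0.74), enzymes that extend or sulphate the chains, fell, although the call of Chst3 was lost when control replicate 1 or verapamil replicate 1 or 3 was left out (edgeR adjusted p = 0.0612 to 0.0783). The genes that rose were Xylt1 (0.48) and Csgalnact1 (0.25), both chosen for mention with their values known. The count that rose was 0 when any library but control replicate 3 was left out, by the test of DESeq2 and with the replicate number as a block.

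**Figure D5:**
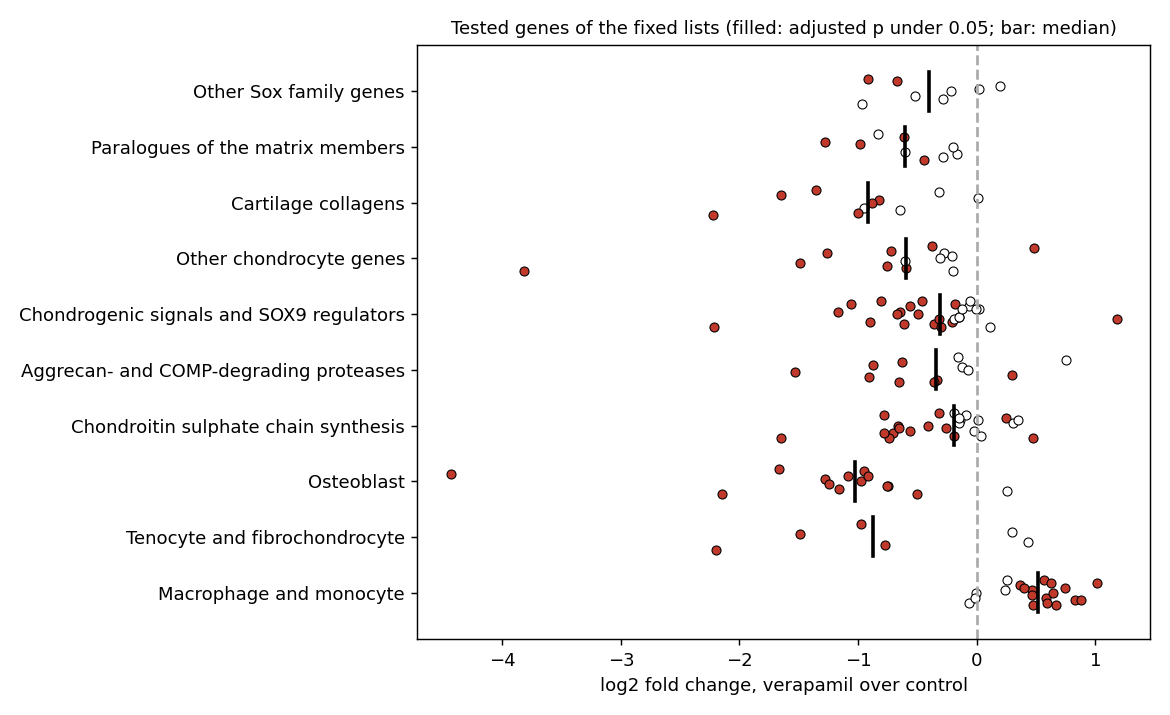
Log2 fold change of verapamil over control for the tested genes of 10 lists, with circles filled at an adjusted p under 0.05 and bars at the list medians. Cartilage and osteoblast lists have medians below 0, and the macrophage and monocyte list has a median of 0.52.

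Markers of other cell types moved in the same libraries. Of 14 osteoblast markers, 13 fell, 0 rose and 1 did not pass, with a median log2 fold change of -1.03, and their summed level was 30854 to 31402 CPM in verapamil and 51418 to 65438 CPM in control libraries. Spp1 (0.25), which did not pass, was a large part of this sum. It had 11651 ± 1285 CPM in verapamil and 9785 ± 1474 CPM in control cultures. Sp7, the osteoblast transcription factor, had 55.9 ± 3.27 CPM in verapamil and 118 ± 0.444 CPM in control cultures, and Dmp1 (-4.43) and Ifitm5 (-2.15) fell furthest. Ifitm5 had 3.9, 5 and 2 reads in verapamil libraries and passed the filter through its control libraries alone. Macrophage and monocyte markers went the other way, with 15 of 20 higher, 0 lower and 5 not past the test, a median of 0.52, and a summed level of 20239 to 22707 CPM in verapamil and 11736 to 14284 CPM in control libraries. Lyz2 (1.02), Tyrobp (0.88), Cd14 (0.83) and Cd68 (0.74) led them. Lyz2 was a large part of the macrophage sum, with 11197 ± 883 CPM in verapamil and 5536 ± 1039 CPM in control cultures. None of these macrophage markers was at 0 in every library. Tendon and fibrocartilage markers, of which Comp is also characteristic, had 4 of 6 tested genes lower, 0 higher and 2 not past the test, with a median of -0.87. Scx, the tendon transcription factor, had 1.33, 1.40 and 1.57 CPM in verapamil and 6.72, 9.45 and 3.81 CPM in control libraries (-2.20 ± 0.34 SE). Tnc (-0.77) and Egr1 (-0.98) fell as well. The call of Tnc was lost when control replicate 1 or a single verapamil library was left out (edgeR adjusted p = 0.0556 to 0.0671). The 2 that did not pass, Mkx (0.30) and Tnmd (0.44), had positive log2 fold changes, Tnmd on 3 to 14 reads in a library. Beside 16.3% lower and 15.4% higher over all genes tested, 2 of 7 tested adipocyte markers fell and 2 rose. Of 7 endothelial markers 2 fell and 1 rose. These small counts hung on single libraries. The adipocyte markers that fell numbered 1 when any verapamil library or control replicate 1 or 3 was left out, and those that rose numbered 1 when any verapamil library was. The endothelial marker that rose was not called without verapamil replicate 2 or control replicate 1. Chondrocyte markers summed to 65.3 to 106 CPM in verapamil and 204 to 591 CPM in control libraries, with Col2a1 making up most of the sum. Of the 5 tested chondrocyte markers, 2 were lower, and no gene of the count table carries the symbol Ucma. The part of the macrophage and osteoblast content of the cultures in the lower Sox9, Hapln1 and Comp was not tested.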

How the data were processed

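The authors deposited 1 estimated count per gene and library, named a read count per the file headers, unscaled for depth or length. Of these values 67.7% were not whole numbers, at a tolerance of 1e-06. The submitters' processing notes name the build GRCm38 (mm10). For the aligner, counter, annotation and strand setting, nothing is given in the sources used here. Libraries had been made with a SMARTER mRNA-seq kit, per the labels' protocols. No columns of other samples were present.

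Estimated counts were rounded. Genes were filtered with filterByExpr (minimum count 10, minimum total 15), which kept 13366 of 17491. Verapamil was compared with control in edgeR 4.0.16 (R 4.3.3) with TMM factors, a robust quasi-likelihood fit and Benjamini-Hochberg adjustment over all genes tested. The SE was derived from the F statistic and the log2 fold change, and intervals use the degrees of freedom of that test. Log2 CPM used a prior count of 2. The test was also run on simulated counts with far fewer changed genes than were called here, a setting unlike these data. Coordinates came from RefSeq GRCm38.p6, matched on Entrez ID for 17360 genes (17347 with the same symbol), and lengths from GENCODE transcripts. A length per gene is an approximation, since the transcripts in use are not known.

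Alternatives covered scaling (DESeq2 1.42.0 size factors, upper quartile, library totals), filter (none, or 1 CPM in 3 libraries), the DESeq2 test, limma-voom (limma 3.58.1), no rounding, an adjusted p under 0.01, a block on replicate number, and leaving out single libraries. Leaving out 1 library keeps 2 in that group.

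The members and gene lists were chosen with earlier results of these data known. Named genes were the members, the up to 4 called genes of largest change in each list (or, with none called, the 2 of highest mean), Col2a1, Col10a1, Runx2, Sp7 and Col1a1, and the 3 genes closest in pattern to Sox9, Comp and Hapln1. Not every gene so chosen is printed, and others were named after their values were seen. The adipocyte, endothelial, tendon, osteoblast, chondrocyte and macrophage lists served as cell type markers. Lists overlap, and genes on more than 1 include Fmod, Pth1r, Hapln3, Sox8, Thbs4, Matn1, Matn3, Matn4, Snorc and Cnmd. Among the collagens, Col2a1, Col9a1, Col9a2, Col9a3, Col10a1 and Col11a2 do so too. Lect1 is an older name of Cnmd. Lists are described by counts and medians.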

Additional observations from a re-analysis of the deposited data

How the results depend on the processing

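Sox9, Hapln1 and Comp were called lower, and no member was called higher, under each of the 16 alternatives (for the members higher, the count was 0 in the edgeR, DESeq2 and limma-voom fits). Matn2 changed sign, without passing, when control replicate 3 was left out (log2 fold change 0.012), and with each library left out in turn it ran from -0.32 to 0.012. Counts over all genes moved more: at an adjusted p under 0.01, 902 genes were higher and 1067 lower, against 2055 and 2180 at 0.05. With 1 library left out, 1010 to 2452 genes were higher and 1222 to 2590 lower; the count higher was 1216 without control replicate 1. Scaling by library totals alone moved the median log2 fold change of all genes to 0.09 and the share of calls that were higher to 63.7%, against 48.5%.

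The replicate numbers share no stated source, and same-numbered libraries deviated together with correlations of 0.00892, -0.167 and -0.127, so they were not treated as pairs. With the replicate number as a block, 1364 genes were called higher, and Sox9, Hapln1 and Comp stayed past the test (edgeR adjusted p = 0.0267, 0.00310 and 0.00303). Sox13 was at 0.0592 under that block. Depth limits Sox6, Acan, Chad and the treated level of Hapln1. Sox6 had 9.04 to 35.2 reads in a library, and Hapln1 had 5 to 16 in verapamil libraries. A floor of 3 reads corresponds to 0.135 to 0.160 CPM.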
